A study of Mus musculus with 6 samples.

Results

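miR-144, miR-451 and miR-486 are microRNAs (miRNAs) of the red-cell lineage, measured here in osteoclasts, the bone-resorbing cells, sorted from mouse bone marrow. They were chosen by name. They are 3 of the 104 miRNAs that gave a threshold cycle (Ct) in all 6 samples of the real-time PCR array. A miRNA without a Ct in all 6 samples was counted as giving none. The highest Ct of the 3 was 32.8 cycles, so none was lost to the filter at 35 cycles. ACLT mice had the anterior cruciate ligament of the knee transected, a surgical model of osteoarthritis, and Sham mice had the operation without transection. Marrow was taken 2 weeks after surgery in both groups, and cells carrying OSCAR and CTR, both receptors of osteoclasts, were isolated by magnetic sorting. There were 3 ACLT samples and 3 Sham samples. The series text states that RNA of 3 mice per group was pooled. The sources used here do not say how that pool relates to the 3 samples of a group, nor give the strain, sex or age of the mice. If the samples are repeat runs of 1 pool, the spread between them, and with it every p-value, is technical.

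In erythroid cells, miR-144 and miR-451 are cut from a single transcript that the transcription factor GATA1 switches on. miR-451 is unusual in that its hairpin is cut by Ago2 and not by Dicer, and it supports red-cell maturation and survival under oxidative stress. miR-486 lies within Ank1, the gene of the ankyrin of the red-cell membrane, and is also made in skeletal muscle. All 3 are abundant in red cells and are used as markers of red-cell material in tissues and fluids; bone marrow holds the precursors of these cells.

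The mature sequences are shown because they identify what each assay read. Capitals mark the seed, bases 2 to 8, with which a miRNA pairs to its targets.
miR-144: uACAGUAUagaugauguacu
miR-451: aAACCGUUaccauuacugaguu
miR-486: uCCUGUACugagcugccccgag
The 3 seeds differ, and no other miRNA on the array list had any of them. miR-101a and miR-101b share the 6 bases from position 2 with miR-144, and neither was among the detected miRNAs. The sequences of miR-144 and miR-451 in the deposited table were identical to miR-144-3p and miR-451a of RefSeq.

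The hairpins of the neighbouring pair are shown because both miRNAs come from a single transcript, so that their levels could be set against each other. Capitals mark the mature miRNA, and the sequences are from RefSeq on build GRCm38.p6.
Mir144: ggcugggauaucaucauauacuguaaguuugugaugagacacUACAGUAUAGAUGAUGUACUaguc
Mir451a: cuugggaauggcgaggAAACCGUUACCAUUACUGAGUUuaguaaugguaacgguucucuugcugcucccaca
Both lie on the plus strand, Mir144 at chr11:78073005-78073070 and Mir451a at chr11:78073170-78073241, with 99 bases between them. Mir451b is annotated at the same 72 bases as Mir451a, on the minus strand. Mir486 lies at chr8:23142555-23142682, inside the span of Ank1 (chr8:22974836-23150501). The mature miR-144 fills positions 43 to 62 of its hairpin, and miR-451 positions 17 to 38 of its own.

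The third sample of each group was tied to the second for all 3 miRNAs, and this stands before every result. In ACLT, the Ct of sample 3 equalled that of sample 2 multiplied by 0.99 for miR-451 and divided by 0.99 for miR-144 and miR-486. In Sham the factor was 0.97843, and it ran the opposite way, dividing for miR-451 and multiplying for miR-144 and miR-486. The largest deviation among these 6 relations was 0.000831 cycles. For example, miR-451 had 27.296 and 27.023 cycles in ACLT samples 2 and 3, and 28.222 and 28.845 cycles in Sham samples 2 and 3. Of the 104 miRNAs, 71 were tied this way in both groups and 16 in neither. The SD over 3 samples thus counts a dependent value for these miRNAs, and values with samples 2 and 3 averaged or with sample 3 left out are given beside the results they move.

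Many Ct values also rose along the plates. The wells are numbered row by row, and in ACLT sample 1 a rising sequence of 49 of the 104 detected miRNAs could be followed in well order, against a longest falling sequence of 9. miR-144 and miR-486 both lay on a rising sequence of that length, while the longest through miR-451 held 36. In the other samples the longest rising sequence held 29 to 41 miRNAs and the longest falling one 9 to 11. The miRNA closest to each of the 3 in raw Ct over the 6 samples was a neighbour in this order. For miR-451 it was miR-574-3p, which lay 5 detected wells further on and differed by 0.010 to 0.116 cycles in each sample; its well was listed a second time in the files, without values. For miR-486 it was miR-423-5p, 5 detected wells earlier, with 0.002 to 0.142 cycles. For miR-144 it was miR-146b, 3 detected wells further on, with 0.016 to 0.487 cycles. The later well had the higher Ct in 18 of these 18 comparisons. Of all 5356 pairs of detected miRNAs, 19 stayed within 0.15 cycles in all 6 samples, and the median of the largest difference was 4.21 cycles. The part of the well order in the values of the 3 miRNAs was not tested.

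**Figure D1:**
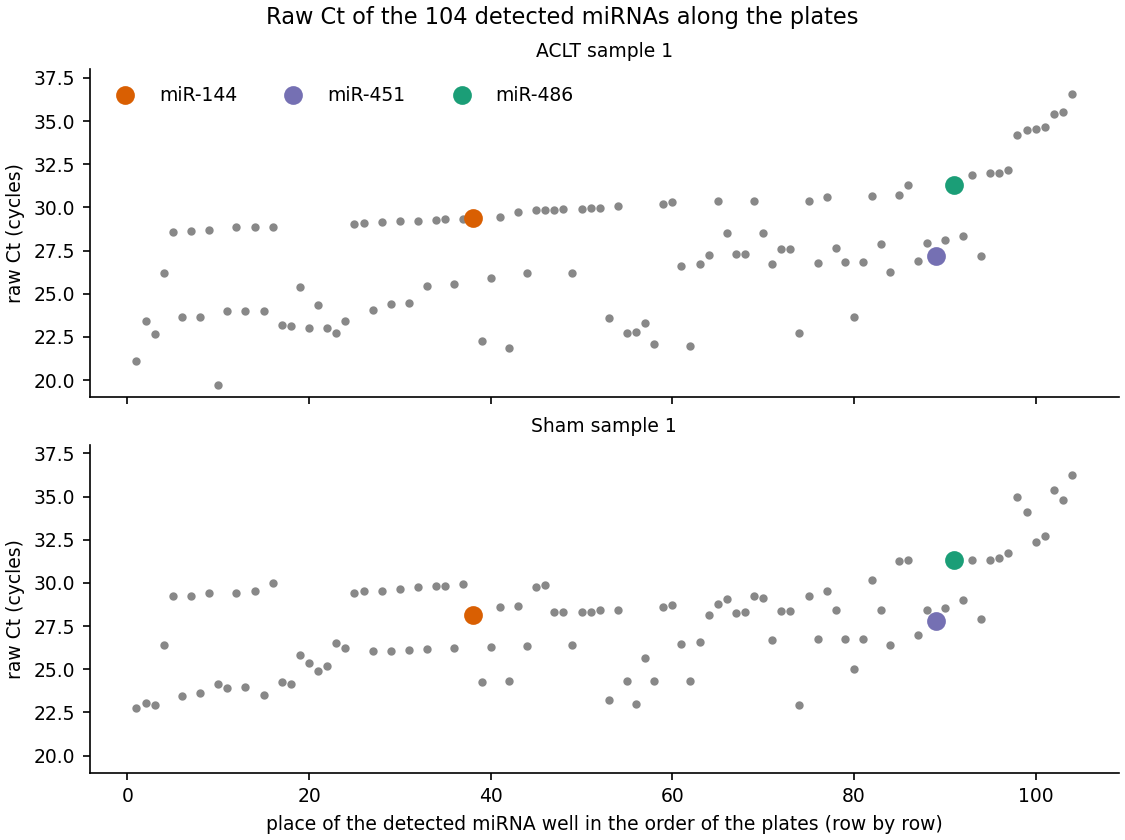
Raw Ct in cycles of the 104 detected miRNAs against their place in well order, for ACLT sample 1 (top) and Sham sample 1 (bottom). Grey points are single miRNAs, and coloured points are the 3 erythroid miRNAs. In ACLT sample 1, miR-144 and miR-486 sit on a band of 49 miRNAs that rises from left to right.

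By raw Ct, miR-451 was the most abundant of the 3 miRNAs and lay in the middle of the detected miRNAs. It had 27.17, 27.30 and 27.02 cycles in ACLT samples 1, 2 and 3, against 27.82, 28.22 and 28.85 cycles in Sham samples 1, 2 and 3. Every ACLT sample had a lower Ct than every Sham sample, with no reference applied and with sample 3 of each group tied to sample 2. The share of all miRNAs whose groups separate on raw Ct is not given here, so this lack of overlap has no background. By mean Ct miR-451 ranked 47 of 104, with ranks of 39 to 45 in ACLT samples and 45 to 58 in Sham samples. In that order miR-218, miR-425 and miR-291b-5p came just before it, and miR-574-3p, miR-297a and miR-455 just after, between 27.4 and 28.4 cycles.

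miR-144, from the same transcript, came later. It had 29.37, 30.22 and 30.53 cycles in ACLT, against 28.14, 30.40 and 29.74 cycles in Sham. The groups overlapped, and Sham sample 1 had the lowest Ct. That sample also set the wider Sham spread, with an SD of 0.600 cycles over the 3 ACLT samples, against 1.16 cycles over the 3 Sham samples. miR-144 ranked 84 of 104, with ranks of 73 to 82 in ACLT samples and 47 to 85 in Sham samples. Its nearest neighbours in the order, miR-320, miR-148b and miR-192 before it and miR-146b, miR-203 and miR-340-5p after it, lay between 29.7 and 30.0 cycles.

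miR-486 was the least abundant. It had 31.33, 32.51 and 32.84 cycles in ACLT, against 31.34, 31.97 and 31.28 cycles in Sham. The groups overlapped, since ACLT sample 1 lay within the Sham values. It ranked 95 of 104, with ranks of 93 to 97 in ACLT samples and 92 to 96 in Sham samples. The order miR-451, miR-144, miR-486 held in all 6 samples. The sources used here give no primer efficiencies, so a difference in Ct between assays is not a ratio of molecules.

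**Figure D2:**
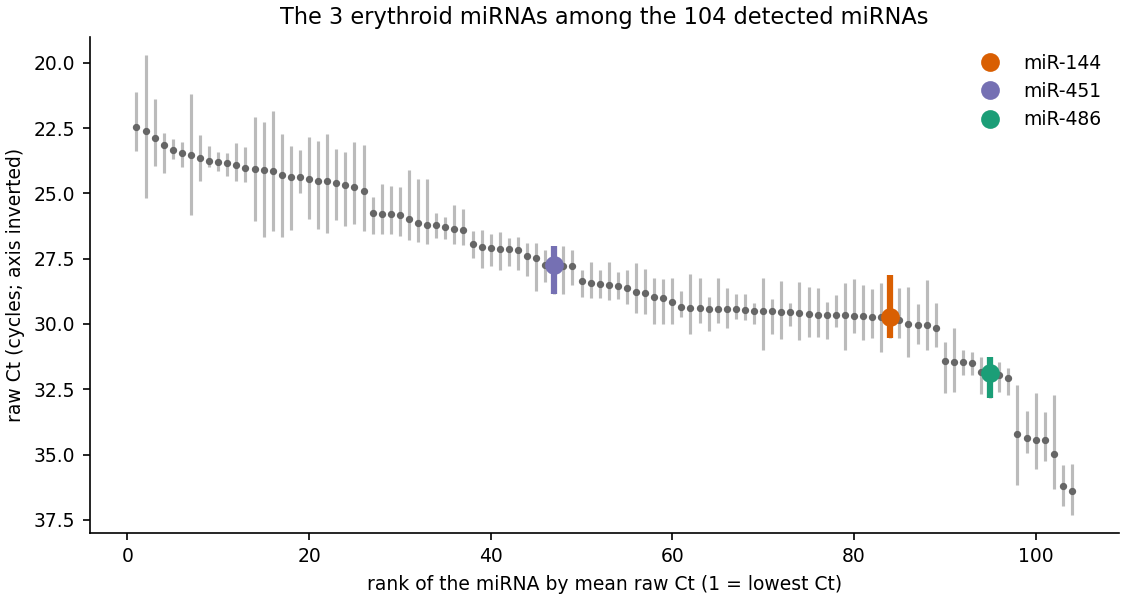
Raw Ct in cycles (inverted axis) of the 104 detected miRNAs in the order of their mean over the 6 samples. Points are means and bars run from the lowest to the highest sample. miR-451 stands at rank 47, miR-144 at 84 and miR-486 at 95.

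Against the bulk of the array, the 3 miRNAs were a small share. miR-21, a miRNA of activated myeloid cells and osteoclasts, came 7.45, 7.00 and 5.79 cycles before miR-451 in ACLT, against 3.70, 3.11 and 3.68 cycles in Sham. miR-21 had 19.7 to 21.2 cycles in ACLT, against 24.1 to 25.2 cycles in Sham, and the distance holds its change as well as that of miR-451. Of the summed 2 to the power of minus Ct of all detected miRNAs, the 3 together made up 0.171%, 0.202% and 0.241% in ACLT samples, against 0.406%, 0.287% and 0.226% in Sham samples. The groups overlapped. This share likewise holds the changes of the other miRNAs, miR-21 among them, as well as those of the 3. miR-23a, whose Ct minus that of miR-451 is used as an index of haemolysis in serum, was chosen here after its values were seen. This difference was -3.19, -4.01 and -3.97 cycles in ACLT samples, against -3.92, -4.70 and -5.83 cycles in Sham samples. miR-451 thus came later than miR-23a in all 6 samples.

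miRNAs listed for the osteoclast lineage itself and for other cell types were also examined. Of 6 miRNAs listed for the myeloid and osteoclast lineage, miR-21, miR-142-5p and miR-146a gave a Ct. miR-223, miR-142-3p and miR-155, all common in marrow myeloid cells, were not among the detected miRNAs. The summed level of the 3 with a Ct ran from 5.80 to 6.27 in ACLT, against 1.77 to 2.51 in Sham (log2, relative to U6). miR-21 made up 89.3% to 97.0% of that sum in ACLT, against 50.0% to 68.6% in Sham, and it alone of the 3 passed, at 4.47 (limma adjusted p = 4.7e-13). miR-142-5p stood at 0.28 and miR-146a at 1.04 (limma adjusted p = 0.779 and 0.296). All 5 stromal miRNAs listed gave a Ct, with a summed level of 5.23 to 5.69 in ACLT, against 2.29 to 2.84 in Sham. The list did not move as one: miR-199a-3p (2.43), miR-214 (3.44) and miR-145 (2.61) passed as higher, with limma adjusted p-values of 0.000945 or less, while miR-143 stood at -0.67 and miR-152 at -0.76 (limma adjusted p = 0.504 and 0.417). The 3 lymphoid miRNAs ran from -0.046 to 1.99 in ACLT, against -0.39 to 0.82 in Sham. miR-150 was the largest part of that sum and stood at 1.08, while miR-181a stood at -1.32 and miR-181d at -0.40, and 0 of the 3 passed (limma adjusted p from 0.112 to 0.670; at an unadjusted p under 0.05, miR-181a alone). For platelets and endothelium only miR-126-3p of 3 gave a Ct, from -0.67 to 0.49 in ACLT, against -0.82 to 0.11 in Sham; miR-126-5p and miR-223 gave none. For muscle, which also makes miR-486, only miR-206 of 3 gave a Ct, from -1.08 to -0.62 in ACLT, against -1.09 to 0.20 in Sham; miR-1 and miR-133a gave none. OSCAR and CTR themselves were not measured. Which of these cell types were in the sort, and their part in the erythroid values, was not tested.

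The comparison of ACLT with Sham asks whether the levels of the 3 miRNAs differed between the sorts after ligament transection. It uses the deposited ΔCt, the raw Ct minus that of a U6 small nuclear RNA well of the same sample and plate. Levels are minus ΔCt, a log2 scale on which 1 unit is a factor of 2 at full efficiency. None of the 3 miRNAs passed the limma test with U6, and 0 of them had an unadjusted p under 0.05. With 3 samples a group of bulk RNA, fewer cells of a type and less RNA per cell cannot be told apart.

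miR-451 had levels of -1.23, -1.17 and -0.16 in ACLT, against -2.47, -1.32 and -2.39 in Sham. The groups did not overlap, as for 26.0% of the 100 tested miRNAs, and ACLT sample 1 and Sham sample 2 lay close to each other. It averaged -0.85 ± 0.60 in the 3 ACLT samples, against -2.06 ± 0.64 in the 3 Sham samples (SD). The difference was 1.21 ± 0.62 (SE), which is 2.31-fold, with a 95% interval of -0.005 to 2.43 and an adjusted p of 0.177 by limma. Without sample 3 in either group it was 0.70, and with samples 2 and 3 averaged it was 1.22 (limma adjusted p = 0.498).

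miR-144 had levels of -3.44, -4.09 and -3.66 in ACLT, against -2.79, -3.50 and -3.29 in Sham. ACLT was the higher one in 1 of 9 pairings of an ACLT with a Sham sample. It averaged -3.73 ± 0.33 in the 3 ACLT samples, against -3.19 ± 0.36 in the 3 Sham samples (SD). The difference was -0.54 ± 0.59 (SE), with an interval of -1.70 to 0.63 and a limma adjusted p of 0.590. Without Sham sample 1, the sample with the most miR-144, it was -0.34.

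miR-486 had levels of -5.39, -6.38 and -5.98 in ACLT, against -5.99, -5.07 and -4.83 in Sham. ACLT was higher in 2 of 9 pairings. It averaged -5.92 ± 0.50 in the 3 ACLT samples, against -5.30 ± 0.61 in the 3 Sham samples (SD). The difference was -0.62 ± 0.65 (SE), with an interval of -1.89 to 0.66 and a limma adjusted p of 0.577. Leaving out 1 sample moved it between -0.97 (without Sham sample 1) and -0.39 (without Sham sample 3, and likewise without ACLT sample 2), and averaging samples 2 and 3 gave -0.31. Among the 100 miRNAs tested, 20 passed an adjusted p of 0.05, which is 20.0%. They were 13 higher in ACLT (13.0%) and 7 lower (7.00%), and 0 of the 3 erythroid miRNAs were among them. All 13 higher ones were among the 16 miRNAs tied in neither group, while the 3 erythroid miRNAs were tied in both. The part of the tie in the calls was not tested. The median difference of the 3 erythroid miRNAs was -0.54, against 0.24 over all tested miRNAs. In the authors' deposited table the ratio of ACLT to Sham was 2.31 for miR-451, 0.689 for miR-144 and 0.651 for miR-486.

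**Figure D3:**
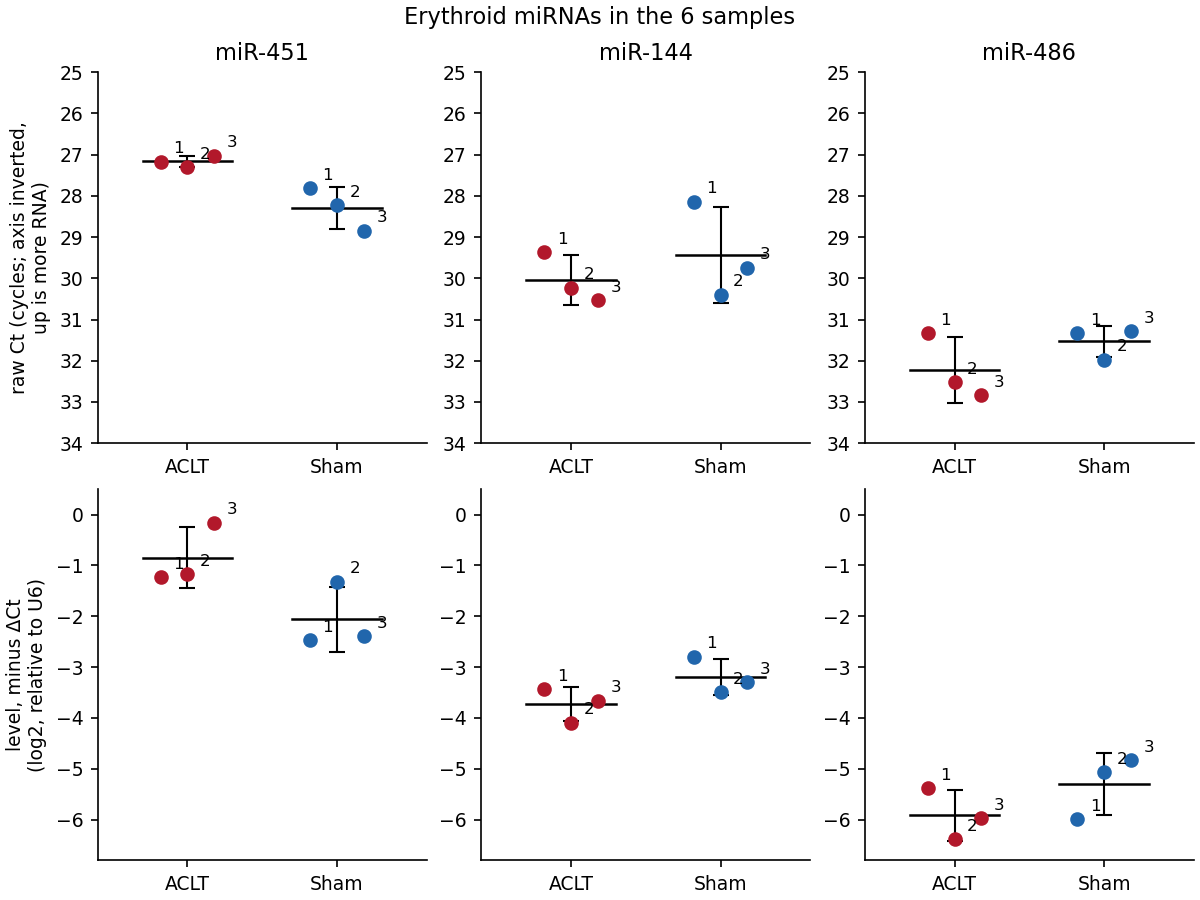
Raw Ct in cycles (top, inverted axis) and level relative to U6 on the log2 scale (bottom) of the 3 erythroid miRNAs in 3 ACLT and 3 Sham samples. Points are samples with their number, lines are means and bars are SD. Of the 3, only for miR-451 do the ACLT points lie apart from the Sham points, as for 26.0% of the 100 tested miRNAs on the level scale.

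The call for miR-451 depended on the scaling. On raw Ct, with no reference, the difference was 1.13 ± 0.42 (SE), with an adjusted p of 0.0265 by limma. Centred on the median detected miRNA it was 0.98 ± 0.40 with a limma adjusted p of 0.0445. Both differences were smaller than with U6, and so were their SEs. With samples 2 and 3 averaged, an alternative added after seeing the data, neither passed, at 1.01 on raw Ct (limma adjusted p = 0.191) and 0.80 centred on the median (limma adjusted p = 0.355). With reference well 3, an unnamed assay, miR-451 reversed to -1.52 and passed as lower (limma adjusted p = 0.0117). With the mean of the 3 reference wells it stood at 0.085 (limma adjusted p = 0.933). Nor did it pass with quantile normalization, at 0.92 (limma adjusted p = 0.118), or with reference well 2, at 0.57 ± 1.36 (SE, limma adjusted p = 0.986). On the plate of the erythroid miRNAs, reference well 2 had 31.7 ± 1.44 cycles in ACLT, against 32.3 ± 1.13 cycles in Sham (SD).

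miR-144 and miR-486 were below 0 under every scaling tried. They passed as lower with the mean of the 3 references, at -1.66 and -1.74 (limma adjusted p = 0.0179 and 0.0288), and with reference well 3, at -3.27 and -3.35 (limma adjusted p = 3.1e-05 for both). With reference well 3 all 3 miRNAs were thus called lower, while the median of all tested miRNAs stood at -2.50 and 87 of 100 tested miRNAs were called lower. That well itself differed between groups, at 28.3 ± 0.789 cycles in the 3 ACLT samples, against 31.0 ± 0.532 cycles in the 3 Sham samples on the plate of the erythroid miRNAs (SD; exact permutation p = 0.1, two-sided). The U6 well on that plate had 26.3 ± 0.490 cycles in ACLT, against 26.2 ± 0.801 cycles in Sham (exact permutation p = 1).

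**Figure D4:**
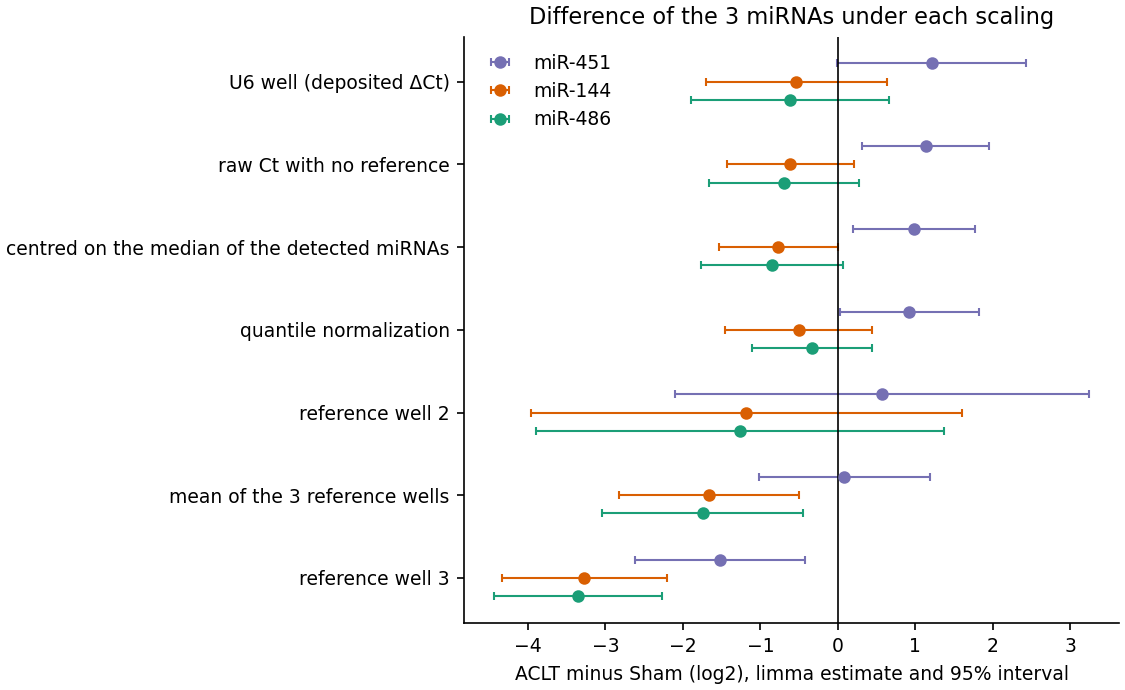
Difference of ACLT minus Sham on the log2 scale for the 3 miRNAs, by scaling from top to bottom. Points are limma estimates and bars are 95% intervals. miR-144 and miR-486 lie below 0 in each row, and miR-451 lies above 0 in each row except reference well 3.

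The gap between miR-451 and miR-144 within a sample needs no reference, since both wells lie on the same plate. It was 2.21, 2.93 and 3.51 log2 units in ACLT, against 0.32, 2.18 and 0.90 in Sham. miR-451 was above miR-144 in 6 of 6 samples, and the groups did not overlap, though ACLT sample 1 and Sham sample 2 lay close to each other. The share of all miRNA pairs whose gaps separate the groups is not given here, so the lack of overlap has no background. The gap averaged 2.88 ± 0.65 in the 3 ACLT samples, against 1.13 ± 0.95 in the 3 Sham samples (SD). The difference of 1.75 had an exact permutation p of 0.1, two-sided, the smallest that 3 against 3 samples can give, so the design cannot reach 0.05. Adjusted over the 3 gaps compared it was 0.15 (exact permutation test, Benjamini-Hochberg).

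The tie between samples 2 and 3 enters this gap directly. Because the factor ran opposite ways for miR-451 and miR-144, sample 3 lay 0.58 above sample 2 in ACLT and 1.28 below sample 2 in Sham. With only samples 1 and 2 of each group, an alternative added after seeing the data, the difference was 1.32, and 2 against 2 samples cannot give an exact permutation p below 0.333. With samples 2 and 3 averaged the difference was 1.78. At full efficiency the ratio of miR-451 to miR-144 was 4.61 and 7.61 in ACLT samples 1 and 2. In Sham samples 1 and 2 it was 1.25 and 4.53. The tied sample 3 gave 11.4 in ACLT and 1.86 in Sham. The ratio thus varied among samples 1 and 2 as well, and the part of the well order in it was not tested.

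miR-451 also stood further above miR-486 in ACLT. That gap was 4.16, 5.22 and 5.82 in ACLT, against 3.52, 3.75 and 2.44 in Sham. The groups did not overlap, and the difference of 1.83 had an exact permutation p of 0.1 (adjusted 0.15). For this gap too, the lack of overlap has no background. The tie enters it as well, because the factor ran opposite ways for miR-451 and miR-486. Sample 3 minus sample 2 was 0.601 in ACLT and -1.313 in Sham. The permutation test counts the tied sample 3 as a separate sample. With only samples 1 and 2 the difference was 1.05, and with samples 2 and 3 averaged it was 1.53. The gap between miR-144 and miR-486 was 1.95, 2.29 and 2.31 in ACLT, against 3.20, 1.57 and 1.54 in Sham. Here the groups overlapped, with a difference of 0.082 (exact permutation p = 1) that turned to -0.25 with samples 2 and 3 averaged. The factor ran the same way for these 2 miRNAs in each group.

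**Figure D5:**
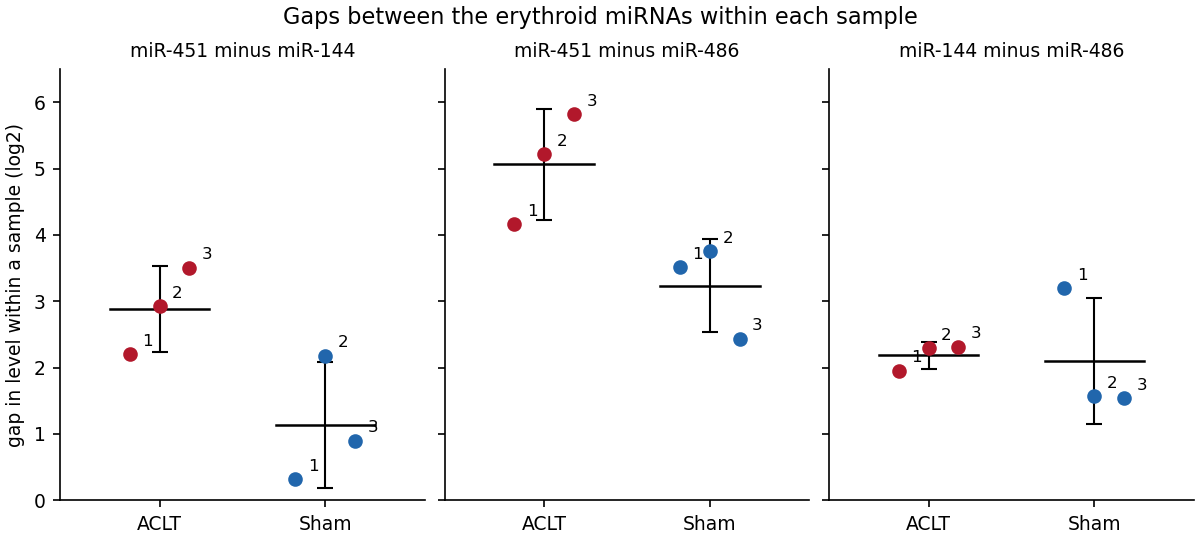
Gap in level on the log2 scale between pairs of the erythroid miRNAs within each of 3 ACLT and 3 Sham samples. Points are samples with their number, lines are means and bars are SD. The gaps of miR-451 to miR-144 and to miR-486 lie higher in the 3 ACLT samples, and that of miR-144 to miR-486 overlaps.

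Summed as a linear level, the 3 miRNAs gave -0.88, -0.95 and -0.013 log2 units in ACLT, against -1.56, -0.95 and -1.61 in Sham. ACLT sample 2 lay just below Sham sample 2, so the groups overlapped. The sum averaged -0.62 ± 0.52 in the 3 ACLT samples, against -1.37 ± 0.37 in the 3 Sham samples (SD), a difference of 0.75 (exact permutation p = 0.2, two-sided). miR-451 made up 78.6%, 86.3% and 90.4% of the sum in ACLT, against 52.9%, 77.2% and 58.1% in Sham, so miR-451 was the largest part of the sum in all 6 samples. With the mean of the 3 references the difference was -0.37. Without sample 3 it was 0.33.

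The profile of miR-144 over the samples was not closest to that of miR-451. Each profile was centred on its own mean, and the distance was the root mean square difference in level over the 6 samples. Among 102 other miRNAs, miR-451 was number 72 in closeness to miR-144, at 1.10, against a median distance of 0.93. miR-486 was number 9, at 0.56. The closest to miR-144 were miR-146b, miR-184 and miR-181d, at 0.17, 0.20 and 0.37, all in row E of the plate like miR-144. To miR-451 the closest were miR-574-3p, miR-325 and let-7e, at 0.037, 0.076 and 0.11. To miR-486 they were miR-423-5p, miR-381 and miR-375, at 0.063, 0.16 and 0.17. All these values include the tied samples, and for miRNAs tied in the same direction the third sample adds no separate point. In both groups the factor ran opposite ways for miR-144 and miR-451, and the same way for miR-144 and miR-486. Distances without sample 3 are not given here, and the part of the tie in the order of closeness was not tested.

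Other miRNAs described in red-cell development gave 1 call among the 10 that were detected, against 20.0% of all tested miRNAs. That count depended on the scaling: it was 0 with reference well 2, 2 on raw Ct, 2 centred on the median, 2 relative to the averaged references, 6 after quantile normalization and 10 on reference well 3. Of 13 listed as rising or abundant, 11 were on the array list and 4 gave a Ct. miR-16, miR-15a, miR-15b, miR-210, miR-363, miR-101a and miR-101b gave none, although miR-16 is among the abundant miRNAs of red cells. With U6, 0 of the 4 passed, and 0 had an unadjusted limma p under 0.05. The difference was 0.77 for both miR-92a and miR-93, 0.60 for miR-106b and -0.20 for miR-25. Their adjusted p-values from limma ran from 0.417 to 0.826. Leaving out 1 sample moved miR-92a between 0.43 (without ACLT sample 3) and 1.18 (without Sham sample 2), miR-93 between 0.44 and 1.18 (without the same samples), and miR-106b between 0.055 (without ACLT sample 1) and 1.13 (without ACLT sample 2). With quantile normalization 3 of the 4 passed, miR-92a at 1.12 and miR-93 at 1.15 as higher and miR-25 at -1.56 as lower (limma adjusted p = 0.0271, 0.0235 and 0.0134). With reference well 3 all 4 passed as lower. The median of the 4 was 0.68, against 0.24 over all tested miRNAs.

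Of 10 listed as falling or restraining, 6 gave a Ct, and miR-221, miR-223, miR-155 and miR-103 gave none. miR-222, which represses the receptor Kit in erythroid precursors, was lower in ACLT, averaging -4.11 ± 0.58 in the 3 ACLT samples, against -2.49 ± 0.82 in the 3 Sham samples (SD). Its samples had -4.41, -4.49 and -3.45 in ACLT, against -3.42, -2.11 and -1.93 in Sham, so ACLT sample 3 came close to Sham sample 1. The difference was -1.63 ± 0.59 (SE; limma adjusted p = 0.0352). The call held on raw Ct, centred on the median, after quantile normalization, relative to the averaged references and on reference well 3 (limma adjusted p from 5.1e-06 to 0.0235). With samples 2 and 3 averaged the call was lost, at -1.47 (limma adjusted p = 0.287). With that average it held on raw Ct, at -1.67 (limma adjusted p = 0.0478), and centred on the median, at -1.89 (limma adjusted p = 0.00191). It was lost as well with reference well 2, with the replicate number as a block (limma adjusted p = 0.0933), with only samples 1 and 2, and without ACLT sample 1 or 2 or Sham sample 2 or 3. miR-181a stood at -1.32, miR-150 at 1.08, miR-126-3p at 0.29, miR-24 at 0.15 and miR-191 at -0.19, with limma adjusted p-values from 0.112 to 0.864. Under other scalings miR-181a passed as lower, at -1.40 on raw Ct, -1.55 centred on the median, -2.45 relative to the averaged references, -1.21 after quantile normalization and -4.05 on reference well 3 (limma adjusted p from 1.1e-05 to 0.0235). It also passed without Sham sample 1, at -1.67 (limma adjusted p = 0.00715), and centred on the median with samples 2 and 3 averaged, at -1.66 (limma adjusted p = 0.0064). miR-191 passed as lower with quantile normalization, at -1.53 (limma adjusted p = 0.0134), and with reference well 3. Leaving out 1 sample moved miR-150 between 0.62 (without Sham sample 1) and 1.71 (without ACLT sample 1), and miR-126-3p between 0.004 (without Sham sample 1) and 0.65 (without ACLT sample 2). With U6, 1 of the 6 passed.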

How the data were processed

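Per the labels' protocols, Trizol RNA of 3 ACLT and 3 Sham samples went through QuantiMir reverse transcription and 40 cycles of SYBR Green PCR on a ViiA7. The authors deposited raw Ct per well, ΔCt on a log2 scale and a linear ratio of ACLT to Sham with a U6 reference, per the file headers. ΔCt equalled raw Ct minus the first reference well of the plate. The sources used here do not give the threshold settings. Such arrays have no read depth, and the number of samples limits the precision.

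Of 717 wells, 110 had a Ct in all 6 samples, 104 of miRNAs and 6 of references. The 2 emptied ΔCt lines were left out and not analysed here. A pair of wells was listed again without values, and the line with values was used. limma 3.58.1 (R 4.3.3) tested the 100 miRNAs that reached a Ct under 35 in every sample of either group (lmFit, eBayes with trend, two-sided, Benjamini-Hochberg over all 100, threshold 0.05). limma pooled the spread over wells that share samples and reference, so its intervals and p-values rest on fewer independent units than it assumes. For gaps, sums and reference wells, exact permutation tests (two-sided) were used. The fit and the scan for tied samples (tolerance 0.002 cycles) were tested on simulated data. The other 13 sample pairs of the deposited data matched in 2 to 4 wells. The data simulated for the fit held no tie between samples, so that test does not cover the tied miRNAs. Python 3.11.15, numpy 2.4.6 and pandas 2.3.3 were used. The 3 miRNAs, the lists and the tests were chosen with earlier results of these data known. Named beside the 3 miRNAs are the listed red-cell miRNAs, the 3 closest profiles, the neighbours in Ct order and the reference wells.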

Additional observations from a re-analysis of the deposited data

How the results depend on the processing

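Of the 100 tested miRNAs, the 20 past the threshold became 35 (17 higher, 18 lower) when centred on the median, 0 with reference well 2 (2 at an unadjusted limma p under 0.05), 88 with reference well 3 (1 higher), 40 with the mean of the 3 references (6 higher), 11 (all higher) with samples 2 and 3 averaged, 9 on raw Ct with that average, 24 (12 higher, 12 lower) centred on the median with that average, 3 when sample 3 of both groups was left out, and from 13 to 30 without any 1 sample (30 without Sham sample 1; 13 without ACLT sample 1 or 2 or Sham sample 2 or 3). Quantile normalization gave 10 higher and 14 lower. With the replicate number as a block 14 passed (13 higher, 1 lower), 0 of them erythroid. The block leaves each difference as it was by construction (1.21 for miR-451, -0.54 for miR-144, -0.62 for miR-486) and changes only its error. Same-numbered samples correlated at 0.24, 0.056 and 0.066 in their deviations, against -0.22 to 0.22 for samples of different number. Whether same-numbered samples were handled together is not stated in the sources used here, and these correlations cannot settle it. miR-451 passed on raw Ct (1.13) and centred on the median (0.98) and reversed with reference well 3, where it passed as lower (-1.52). miR-144 and miR-486 passed as lower with reference well 3 (-3.27 and -3.35) and the mean of the references (-1.66 and -1.74). Leaving out 1 sample gave 0.86 to 1.58 for miR-451 and -0.69 to -0.34 for miR-144, and -0.97 to -0.39 for miR-486. It gave 1.34 to 2.27 for the gap of miR-451 to miR-144, 1.43 to 2.28 for that to miR-486 and 0.45 to 0.97 for the sum. The gap of miR-144 to miR-486 ran from -0.20 to 0.63 and was -0.25 with samples 2 and 3 averaged and -0.26 with only samples 1 and 2. The sum turned to -0.37 on the mean of the references and to -1.98 on reference well 3, a setting added after seeing the data. The ranks moved by less than their spread over samples. The cause of these changes was not tested.

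Among the 10 listed red-cell miRNAs detected, 0 to 10 passed by setting, 10 with reference well 3 and 6 with quantile normalization; reference well 3 reversed miR-92a (-1.97), miR-93 (-1.96), miR-106b (-2.13), miR-150 (-1.65), miR-24 (-2.59) and miR-126-3p (-2.44). The mean of the references reversed the same 6, at -0.36, -0.35, -0.52, -0.044, -0.98 and -0.83. Reference well 2 reversed miR-106b (-0.039), miR-24 (-0.50) and miR-126-3p (-0.35), quantile normalization miR-106b (-0.077), miR-150 (-0.14) and miR-126-3p (-0.18), and centring on the median miR-24 (-0.082, or -0.024 with samples 2 and 3 averaged). Leaving out 1 sample turned miR-25 to between 0.043 and 0.13 in 3 of 6 cases, with a range of -0.83 to 0.13, miR-24 to -0.28 (range -0.28 to 0.41) and miR-191 to 0.11 (range -0.38 to 0.11).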
